A study of Mus musculus with 26 samples.

Results

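RNA polymerase II (Pol II) on gene bodies was compared between mouse liver 3 h after removal of part of the organ and the same organ at 0 h. The members are the 4455 genes, of 21133 measured (21.1%), whose signal per bp was above 0.5 in either library. Above that level were 3622 genes at 0 h and 3071 at 3 h. The last gene inside the limit was Ftsj1, at 0.50 and 0.0671 units per bp at 0 and 3 h, and the first outside was Rnpep, at 0.499 and -0.268. Another 373 members had a larger signal of 0.5 to 0.6, and 428 measured genes at 0.4 to 0.5 were left out.

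ChIP-seq, in which antibodies pull down a protein with the DNA it sits on for sequencing, was made for Pol II and other factors in 26 samples. The Pol II antibody is catalogue number AC-055-100, and its vendor is spelled Daigenode in the labels. All mice were WT C57BL6/J males of 7 weeks that lost 3 of 5 liver lobes. The tissue cut out at surgery is the 0 h group and the liver left in the animal, taken 3 h later, is the 3 h group, so no group was free of surgery and no sham operation enters the comparison. Livers came from 5 mice per time point, each group is 1 library, and the labels do not say whether the mice were pooled. There were no replicates, so every difference is between 1 library and 1 library, with no test and no p-value. The tissue was whole liver: fewer cells of a type and less Pol II per cell cannot be told apart.

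Pol II transcribes the protein-coding genes, and its density over a gene body reflects how many polymerases are copying that gene at the moment of fixation. It therefore moves before the level of the stable mRNA does. In the first hours after partial hepatectomy, hepatocytes leave quiescence while still carrying the metabolic and secretory work of the organ. Cytokines such as IL-6 act on them through STAT3, and C/EBP factors bind the genes of the acute phase, the set of plasma proteins that liver releases upon injury.

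A gene is called higher or lower where the signal differed by 1 or more on the log2 scale, a change of 2-fold, after 0.5 was added to both values. Of the 4455 genes, 1001 (22.5%) were higher at 3 h, 1416 (31.8%) were lower and 2038 were neither. These shares are the background against which each gene group is read. The median change of all 4455 genes was -0.21. A change of 2 or more was seen in 302 genes upward and 306 downward, one of 3 or more in 92 and 61, and one of 4 or more in 39 and 12. Close to the limit, 126 genes lay between 1.0 and 1.1 upward and 176 downward, against 77 and 100 between 0.9 and 1.0. With libraries scaled over genes above 5 units in all 8 libraries, 704 genes were higher and 1623 lower, which put the higher genes at 30.3% of those called, against 41.4% in the scaling used here.

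The genes divided by where they were detected. Above 0.5 in both libraries were 2238 genes, of which 392 were higher, 340 lower and 1506 neither. A further 833 genes were above 0.5 at 3 h alone, 609 of them higher, and 384 of the 833 had a 0 h signal below 0. Above 0.5 at 0 h alone were 1384 genes, 1076 of them lower, and 687 had a 3 h signal below 0. These 2 classes could move only in the direction of the library that let them in.

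**Figure D1:**
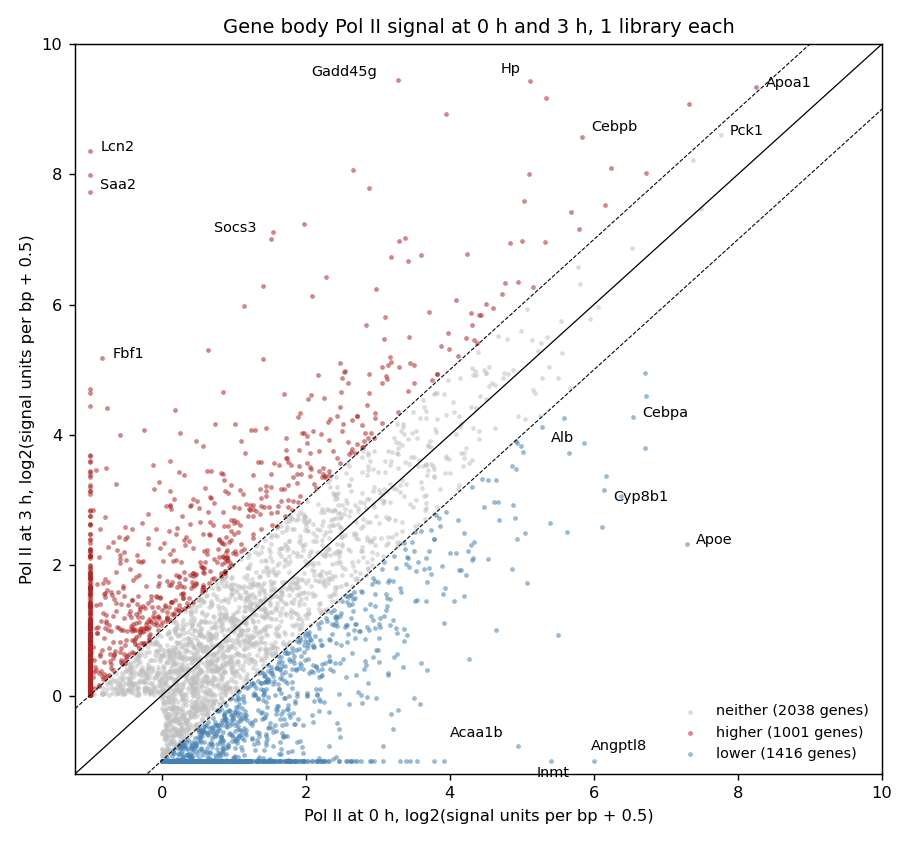
Each point is 1 of the 4455 genes, with its Pol II signal at 0 h on the x axis and at 3 h on the y axis, both as log2 of signal units per bp after adding 0.5. The solid line marks no change and the dashed lines a change of 1, and the column and row of points at the edges are genes listed at or below 0 in 1 library.

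The 3 h library stood apart from the other 7 Pol II libraries. Entries below 0 made up 50.6% of its file, against 38.4% to 44.3% in the others, and its deposited signal summed to less than 0. In the 14738 genes at or below 0.5 in all 8 libraries the median signal was -0.28 units per bp at 3 h, -0.15 at 0 h and -0.10 to -0.16 in the other 6. Among genes called lower, and above all those listed near 0 at 3 h, this offset moves with the result, and its part in the count was not tested. When the median signal of all measured genes was subtracted in each library, 1153 genes were higher and 1213 lower.

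The difference between 0 and 3 h was wider than between any of 5 consecutive pairs of libraries that use neither. In those pairs, which ran from 8 and 16 h through 16 and 24, 24 and 36, and 36 and 48 to 48 and 168 h, 11.7%, 21.6%, 19.1%, 13.7% and 27.3% of the genes above 0.5 in either library changed by 1 or more, while 54.3% did here. In the same order 7.81%, 9.62%, 13.5%, 3.74% and 11.9% were higher in the later library and 3.93%, 12.0%, 5.65%, 9.94% and 15.4% were lower. The median size of the change was 1.07 here and 0.37 to 0.59 in the 5 pairs. Each pair is 1 library against 1 library too, and the 3 h library is the one with the offset given above. Of the 2238 genes above 0.5 in both the 0 h and 3 h libraries, 392 were higher and 340 lower. The 5 pairs were not split in this way. The part of detection and of the offset in the wider difference was not tested.

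More of the positive signal also lay on the highest genes at 3 h. The 10 genes of highest signal held 10.5% of the positive signal per bp at 0 h and 21.9% at 3 h, and the 100 highest held 33.1% and 53.9%. Above 100 units per bp were 10 genes at 0 h and 35 at 3 h. Direction went with level, but level was the mean of the same libraries that set membership and change. Of the 143 genes whose mean over both libraries was above 20 units, 49.0% were higher and 16.1% lower, with a median change of 0.87. Of the 2149 genes with a mean of 1 or less, 20.1% were higher and 40.1% lower, with a median of -0.62. Genes above 0.5 in 1 library alone could move only towards it: 1076 lower genes at 0 h alone and 609 higher genes at 3 h alone. Among genes above 0.5 in both libraries 392 were higher and 340 lower. Genes at or below 0.5 in all 8 libraries had a median of -0.28 at 3 h and -0.15 at 0 h. Values below 0 counted as 0 in the shares of the highest genes. The part of this offset in those shares, and of detection and the offset in the trend with level, was not tested.

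**Figure D2:**
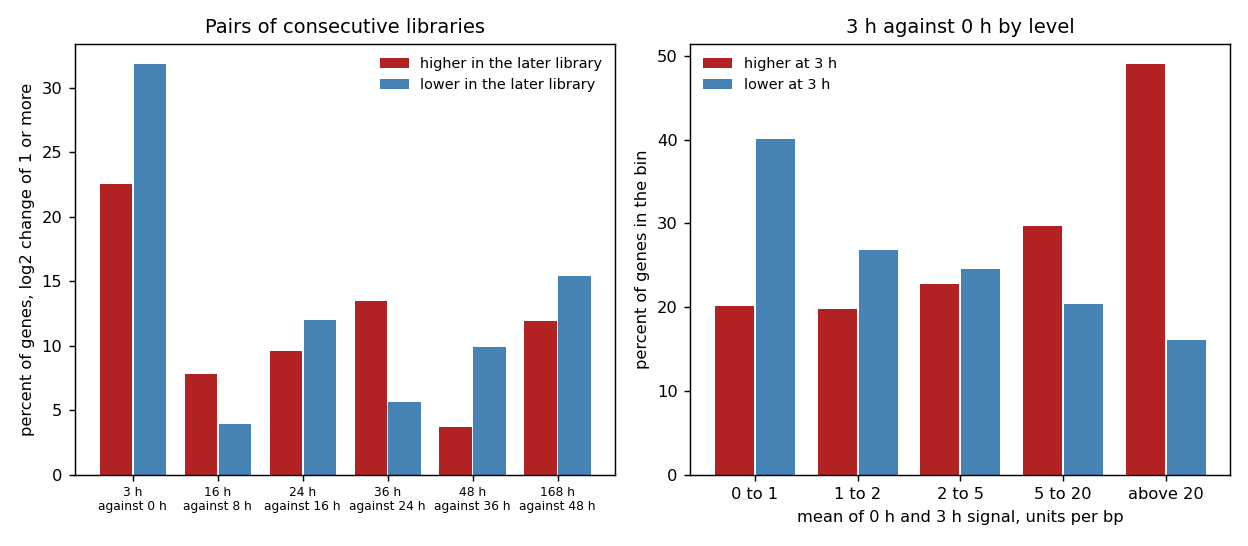
The left panel gives the percent of genes that were higher (red) or lower (blue) by 1 or more on the log2 scale in the later of 2 consecutive libraries, and the right panel gives the same for 3 h against 0 h by the mean signal of both libraries in units per bp. Both bars of 3 h against 0 h are the tallest of their colour on the left, and on the right the red bar grows from 20.1% to 49.0% with level while the blue bar shrinks from 40.1% to 16.1%.

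The largest rise was at Lcn2, which encodes lipocalin-2, a secreted protein that binds bacterial iron carriers. Its measured body, mm9 chr2:32240157-32242790 on the minus strand, had -1.26 units per bp at 0 h and 326 at 3 h. At 8, 16, 24, 36, 48 and 168 h it had 43.8, 29.5, 10.01, 12.3, 28.0 and 4.86, so the 3 h library was the highest of the 8 and the 0 h library the only one below 0. The change was 9.35 on the log2 scale after adding 0.5. Saa2 and Saa1, which encode serum amyloid A proteins of the acute phase, followed at -0.359 and 254 units for Saa2 and -0.927 and 212 for Saa1, changes of 8.99 and 8.73. The pair are near-identical neighbours at mm9 chr7:54008150-54009682 and chr7:53995868-53997850, and reads that fit both could be assigned to either.

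Gadd45g, a gene of the growth arrest and DNA damage family, had 9.22 units at 0 h and 701 at 3 h, the highest signal of any gene at 3 h and 76.0-fold the 0 h level. Its later values ran from 173 at 8 h to 3.81 at 168 h. Socs3, the feedback inhibitor of cytokine receptors that signal through STAT3, went from 2.38 to 128 units, a 54.0-fold difference. Orm1, which encodes the plasma carrier orosomucoid, went from 2.43 to 138. Itih4, an inter-alpha-trypsin inhibitor heavy chain gene, went from 5.83 to 268. Lrg1, a secreted leucine-rich glycoprotein gene, went from 14.9 to 485, a 32.5-fold difference. Hpx, which encodes the haem-binding protein hemopexin, went from 6.86 to 221, and the protease inhibitor gene Serpina3n from 3.43 to 150.

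The other 5 of the 15 largest rises began at or near 0. Steap4, a metalloreductase of iron and copper uptake, had -0.113 units at 0 h and 24.6 at 3 h. Rcan1, an inhibitor of the phosphatase calcineurin, had 0.0911 and 20.8. Ddx28, a mitochondrial RNA helicase gene that overlaps Dus2l, had -0.0322 and 25.7. Tchh, the hair follicle protein trichohyalin, had -0.581 and 21.4 and was at -0.289 to 0.923 at every later time. Fbf1, a centrosome protein gene, had 0.0617 and 35.9 and was back at 0.0938 at 8 h.

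Promoter sequences of 5 of these rises and of 2 large falls are shown. The rises were chosen, with the values and matches known, as genes whose promoters hold C/EBP or STAT letters, and Saa1 and Saa2 let a pair of near-copies be read against each other. Such letters were in 7 of the 13 promoters matched among the 15 largest rises and in 1 of the 10 matched among the 15 largest falls. The other 6 rises, Gadd45g, Ddx28, Socs3, Tchh, Serpina3n and Lrg1, held neither between 250 bases before and 50 after the start. Each runs 5′ to 3′ over the 250 bases before the RefSeq start in the assembly GRCm38.p6. Capitals mark matches on either strand to TTGCNNAA (C/EBP), TTCCNNGAA (STAT) or TATAAA, the core element of many promoters, and positions count back from the start, with -1 just before it.
Lcn2: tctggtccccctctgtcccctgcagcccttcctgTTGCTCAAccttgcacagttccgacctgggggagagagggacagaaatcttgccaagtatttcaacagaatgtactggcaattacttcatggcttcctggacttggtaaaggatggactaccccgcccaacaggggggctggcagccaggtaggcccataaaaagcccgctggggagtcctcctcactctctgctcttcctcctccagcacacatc
Saa1: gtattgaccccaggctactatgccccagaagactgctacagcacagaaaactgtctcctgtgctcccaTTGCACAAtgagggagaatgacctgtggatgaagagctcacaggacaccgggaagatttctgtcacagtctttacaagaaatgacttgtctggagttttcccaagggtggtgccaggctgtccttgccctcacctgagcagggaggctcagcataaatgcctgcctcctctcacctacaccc
Saa2: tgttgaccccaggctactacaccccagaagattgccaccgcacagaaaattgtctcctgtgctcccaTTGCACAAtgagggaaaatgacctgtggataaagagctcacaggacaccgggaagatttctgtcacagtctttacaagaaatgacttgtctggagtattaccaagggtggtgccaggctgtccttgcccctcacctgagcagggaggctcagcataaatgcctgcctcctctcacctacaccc
Steap4: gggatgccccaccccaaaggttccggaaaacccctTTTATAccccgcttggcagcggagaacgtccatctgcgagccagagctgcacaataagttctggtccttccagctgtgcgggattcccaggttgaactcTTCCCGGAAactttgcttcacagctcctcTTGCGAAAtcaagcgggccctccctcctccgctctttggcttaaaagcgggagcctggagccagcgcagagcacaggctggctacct
Itih4: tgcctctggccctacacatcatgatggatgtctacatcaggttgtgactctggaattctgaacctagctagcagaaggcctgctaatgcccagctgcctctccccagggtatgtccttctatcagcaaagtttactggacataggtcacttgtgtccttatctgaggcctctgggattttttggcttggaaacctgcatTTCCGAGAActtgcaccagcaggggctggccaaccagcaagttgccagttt
Angptl8: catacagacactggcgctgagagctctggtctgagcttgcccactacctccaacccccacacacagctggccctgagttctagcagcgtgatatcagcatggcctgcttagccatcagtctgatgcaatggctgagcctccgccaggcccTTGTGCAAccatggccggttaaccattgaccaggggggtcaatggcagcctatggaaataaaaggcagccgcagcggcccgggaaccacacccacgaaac
Inmt: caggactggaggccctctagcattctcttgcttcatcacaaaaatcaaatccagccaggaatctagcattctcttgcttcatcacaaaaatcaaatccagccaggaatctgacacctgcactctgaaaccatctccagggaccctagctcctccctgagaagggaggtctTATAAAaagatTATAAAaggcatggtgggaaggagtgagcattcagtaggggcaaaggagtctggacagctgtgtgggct

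The Saa1 and Saa2 windows were identical at 94.8% of the columns of their alignment (238 bases), and both held the C/EBP letters, at -182 to -175 in Saa1 and -183 to -176 in Saa2. Lcn2 held them at -216 to -209, and Steap4 at -87 to -80 with STAT letters at -116 to -108. Itih4 held STAT letters at -51 to -43. The C/EBP letters were present in a falling gene too, Angptl8, at -100 to -93, and Inmt held the TATA letters at -80 to -75 and -69 to -64. A match describes the letters only.

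The acute phase genes moved together. Of 25 measured genes of this list, 21 were above 0.5 in either library, and 19 of those (90.5%) were higher and 0 lower, with a median change of 4.14. Of the 21, 7 were above 0.5 at 3 h alone and could only rise. The 14 above it in both libraries held 12 higher and 0 lower genes, with a median of 3.62. Over all measured genes of the list the median was 3.69. Haptoglobin (Hp), which binds free haemoglobin, went from 34.1 to 694 units, a 20.3-fold difference, and had the second highest signal at 3 h. The 3 fibrinogen chain genes moved alike: Fga went from 8.59 to 106 units, Fgb from 10.2 to 101 and Fgg from 9.28 to 126. Lbp and Cd14, whose products pass bacterial endotoxin to its receptor, went from 1.53 to 17.5 and from -0.148 to 8.31. Saa3 and Saa4 went from -0.682 to 6.6 and from 8.48 to 36.1.

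Members of the same families differed. Orm2 went from 0.447 to 5.36 units, while Orm3 had 1.25 in both libraries. Itih3 went from 1.07 to 39.0, a change of 4.66, beside 1.37 for Itih2 and 1.82 for Itih1. Hamp, which encodes the iron hormone hepcidin, had 36.8 and 38.5 units, and Crp and the ceruloplasmin gene Cp stayed below 0.5 in both libraries. The summed signal of the 25 measured genes of the list, negative values counting as 0, was 135 units per bp at 0 h and 2796 at 3 h.

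Of 18 genes of IL-6 signalling 10 were higher and 1 lower, with a median of 1.67. This median rests on genes let in by the 3 h library alone, 6 of the 18: among the 10 genes above 0.5 in both libraries 4 were higher and 0 lower, with a median of 0.41, and over all measured genes of the list the median was 0.46. Cebpb, which encodes the transcription factor C/EBPbeta, went from 56.5 to 381 units, 6.75-fold, the eighth highest signal at 3 h. The inhibitor genes Socs1 and Socs2 went from -1.61 to 11.4 and from -0.116 to 2.55. The receptor genes Il1r1 and Il4ra went from 0.377 to 4.54 and from -0.0476 to 3.94, and Stat3 itself from 0.303 to 1.94. Bcl3, a partner of NF-kB proteins, went from 3.60 to 22.9, and the kinase gene Pim3 from 51.0 to 171. The receptor chains of IL-6 did not reach a change of 1: Il6ra had 3.17 and 2.80 units and Il6st 0.522 and 0.856. The gene called lower was Lifr, a receptor of leukaemia inhibitory factor, at 1.55 and 0.390.

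NF-kB targets and chemokines were split, with 4 of 9 higher, 2 lower and 15 further measured genes of the list below 0.5 in both libraries. The 5 genes above 0.5 in both libraries held 2 higher and 0 lower genes. Cxcl1, a neutrophil attractant, went from 2.82 to 14.9 units, while Cxcl10, an interferon-induced attractant of T cells, went from 3.58 to -0.262. Nfkbia, the feedback inhibitor of NF-kB, had 12.4 and 13.8. The adhesion gene Icam1 went from -0.153 to 1.03.

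Of 26 immediate early genes, which respond to a stimulus without new protein synthesis, 11 were higher (42.3%) and 3 lower, with a median of 0.66. The 21 above 0.5 in both libraries held 8 higher and 2 lower genes, with a median of 0.61. Junb went from 74.6 to 272 units, Myc from 1.5 to 6.92, Fos from -0.688 to 3.33, Fosl2 from 0.809 to 5.73 and Egr1 from 19.6 to 43.4. Atf3, Ier3 and Btg2, which rise in stressed cells, changed by 1.70, 2.81 and 2.11. Jun, at 46.8 and 37.6, and Jund, at 40.9 and 32.5, were neither. Below 0.5 in both libraries were Egr2, Egr3, Klf4, Nr4a2 and Nr4a3, and Fosb went from 0.530 to -0.244. Called lower with it were Btg1 and Ccn1, a secreted matrix protein gene, at 7.32 and 2.09 units. Zfp36, whose product degrades cytokine mRNAs, was already at 166 units at 0 h and had 297 at 3 h, a change of 0.84.

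Feedback regulators of MAP kinases showed no call in 4 genes: Dusp1 had 24.9 and 45.2 units, Errfi1 27.2 and 44.1, Dusp6 9.62 and 5.86 and Spry4 0.992 and 0.394. The median was 0.01, and -0.31 to 0.83 over the other scalings. Of 14 targets of glucocorticoids, the adrenal stress hormones, 7 were higher and 1 lower, with a median of 1.0. Tat, tyrosine aminotransferase, went from 55.2 to 142 units, Sds, serine dehydratase, from 8.58 to 34.2, Fkbp5, a receptor co-chaperone, from 0.514 to 3.69 and the kinase gene Sgk1 from 1.38 to 3.85. Tsc22d3, another textbook target, went the other way, from 19.2 to 4.49.

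**Figure D3:**
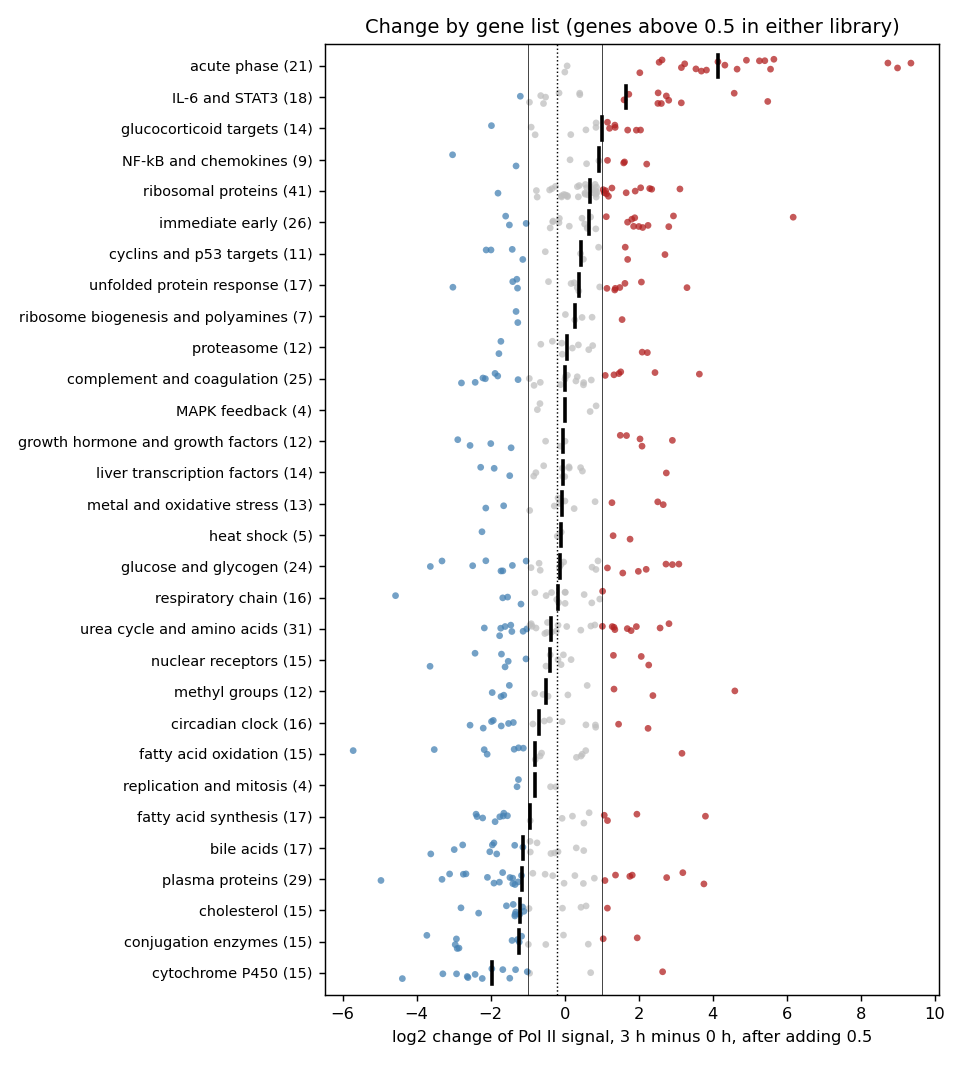
Each point is 1 gene of a list, at its log2 change of Pol II signal from 0 to 3 h, and each black bar is the median of its list, with the number of genes above 0.5 in either library in brackets. Thin lines mark a change of 1 in either direction and the dotted line the median of all 4455 genes at -0.21; the acute phase list lies farthest to the right and the cytochrome P450 list farthest to the left.

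The largest fall was at Angptl8, a secreted regulator of lipoprotein lipase, listed under its older name EG624219. Its measured body, mm9 chr9:21640454-21641790 on the plus strand, lies inside Dock6. It had 63.8 units per bp at 0 h and -0.210 at 3 h, a change of -7.01. At 8 to 168 h it had 15.2, 27.7, 32.4, 30.8, 17.9 and 36.0, so the 3 h library was the only one near 0 and the 0 h library the highest. Inmt, an amine N-methyltransferase gene, went from 41.7 to -0.793 units, and Acaa1b, a peroxisomal thiolase of fatty acid oxidation, from 30.4 to 0.0872. Apoe, a ligand for lipoprotein uptake, went from 156 to 4.50 units, 34.6-fold lower. Its later values were 38.4, 52.6, 58.9, 47.9, 39.3 and 51.6, all between the 3 h and 0 h levels. Ndufs7, a subunit of respiratory complex I, went from 44.7 to 1.4.

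Other large falls were at Hhex, a homeobox factor of liver, which went from 10.4 to -0.394 units, Car3, a carbonic anhydrase gene, which went from 9.41 to -0.639, and Rarres2, which encodes chemerin, at 7.25 and -0.351. Ugt1a10, a glucuronosyltransferase gene, went from 11.2 to -2.97. Cyp1a2, which overlaps Cyp1a1, went from 9.96 to -0.694. The genes Es31, 4732444A12Rik, G430095P16Rik, Abhd14b and EG13909 (Ces3b in RefSeq, a carboxylesterase gene) completed the 15, with changes of -4.93, -4.78, -4.08, -3.90 and -3.90. G430095P16Rik overlaps Nfix and Rarres2 overlaps Lrrc61, and reads over such genes cannot be assigned to 1 of them. Of the 15 genes, 13 were at or below 0.5 at 3 h.

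Secreted plasma proteins outside the acute phase were divided, with 15 of 29 lower (51.7%), 7 higher and a median of -1.17, which was -0.70 among the 26 above 0.5 in both libraries. Lower were Apoa2 (82.9 and 7.87 units), Apoc1 (48.9 and 5.22), the retinol carrier Rbp4 (41.5 and 5.79), transthyretin (Ttr, 17.9 and 2.39), transferrin (Trf, 28.7 and 11) and albumin (Alb, 38.5 and 16.9). Higher were Apoa1, the main protein of HDL, which had the top signal at 0 h, 305 units, and 649 at 3 h. Apoa5, an activator of triglyceride clearance, went from 160 to 541 units. Apoa4 went from 2.16 to 35.5, in a body that overlaps another entry, while Apoc3 between them had 54.2 and 94.8, a change of 0.80. Ambp, which encodes the trypsin inhibitor bikunin, went from 4.0 to 29.9. Serpina1a to Serpina1e are near-identical copies of the antitrypsin gene: Serpina1b and Serpina1d were lower, at changes of -1.91 and -1.40, and Serpina1e was higher, at 3.19, and the split of reads among them is uncertain.

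Of 15 cytochrome P450 genes, the oxidases of drugs and lipids, 12 were lower (80.0%) and 1 higher, with a median of -1.97. Among the 6 above 0.5 in both libraries 5 were lower and 0 higher, with a median of -1.86. Cyp2e1, which metabolises ethanol, went from 47.4 to 18.6 units, Cyp2d9 from 19.3 to 3.73, Cyp2d26 from 16.2 to 2.23, Cyp2d10 from 12.3 to 0.810 and Cyp3a11 from 2.18 to -0.0717. The gene called higher was Cyp2c70, which makes the muricholic bile acids of mice, at -0.139 and 2.63. Cyp3a13 had 0.236 and 0.697. A further 15 measured genes of the list, among them Cyp2c29 and Cyp4a14, were below 0.5 in both libraries, and with them the median of the list was -0.35.

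Conjugation enzymes, which attach glutathione, glucuronic acid or sulfate to drugs, had 9 of 15 lower and 2 higher and a median of -1.23. Of the 15, 7 were above 0.5 at 0 h alone. Among the 8 above 0.5 in both libraries 2 were lower and 2 higher, with a median of -0.27, and over all measured genes of the list the median was -0.08. The glutathione transferases Gstp1 (28.8 and 3.35 units), Gsta3 (11.6 and 0.413), Gstt2 (9.67 and 0.858) and Gstm1 (3.39 and -0.608) changed by -2.93, -3.72, -2.90 and -2.96. Sult1a1, a sulfotransferase gene, went from 5.05 to 21.1 units. Por, the electron donor of the P450 enzymes, went from 6.37 to 13.6 in a body that overlaps another entry.

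In bile acid synthesis and transport 9 of 17 genes were lower and 0 higher, with a median of -1.13, which was -0.84 among the 12 above 0.5 in both libraries. Cyp7a1, the rate-limiting enzyme of bile acid synthesis, went from 5.64 to -0.449 units, and Cyp8b1, which sets the share of cholic acid, from 70.1 to 8.41. The canalicular pump gene Abcc2 went from 6.32 to 0.509, and the uptake transporter genes Slc10a1 and Slco1b2 from 7.27 to 1.56 and from 1.44 to -0.316. Cyp27a1, which starts the alternative route, had 1.79 and 1.27, and Baat, which couples bile acids to taurine, had 0.968 and 0.794.

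Cholesterol genes were lower in 10 of 15 cases and higher in 1, with a median of -1.21. Of the 15, 8 were above 0.5 at 0 h alone, and among the 6 above it in both libraries 3 were lower, with a median of -0.64. Insig1, which retains the SREBP activators in the endoplasmic reticulum, went from 14.6 to 1.66 units and Sc5d from 2.01 to -0.343. Mvd went from -0.0383 to 0.612.

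Fatty acid synthesis held 8 lower and 4 higher genes of 17, with a median of -0.93, which was -0.50 among the 12 above 0.5 in both libraries and -0.05 over all measured genes of the list. Srebf1 and Mlxipl, the transcription factors that drive this pathway, went from 12.9 to 3.13 and from 5.48 to 1.27 units, Acly from 2.13 to -0.211 and Dgat2 from 12.3 to 2.24. Fasn, fatty acid synthase, had 9.38 and 8.91. Higher were Scd1, the stearoyl-CoA desaturase, at 0.0180 and 6.72, both acetyl-CoA carboxylases, Acaca at 1.09 and 2.82 and Acacb at 0.0323 and 1.56, and Lpin1, at 5.72 and 13.3.

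Fatty acid oxidation held 7 lower and 1 higher gene of 15, with a median of -0.79. Among the 8 genes above 0.5 in both libraries 3 were lower and 1 higher, with a median of -0.09, and over all measured genes of the list the median was -0.25. Fabp1, the fatty acid carrier of hepatocytes, went from 68.8 to 5.52 units, Acsl1 from 3.04 to 0.329 and the ketone body gene Bdh1 from 1.76 to -0.433. Cpt1a, the entry step into mitochondria, had 4.81 and 6.71.

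Glucose and glycogen genes were divided, with 7 of 24 higher and 8 lower and a median of -0.12, close to that of all genes. The 16 above 0.5 in both libraries held 6 higher and 3 lower genes, with a median of -0.07. Igfbp1, an insulin-repressed binding protein of the IGFs, went from 33.7 to 256 units, Irs2, an insulin receptor substrate, from 16.4 to 66.7, Pfkfb3 from 0.594 to 6.78, Ldha from 5.53 to 27.2 and Eno1 from 0.458 to 2.34. Pyruvate carboxylase (Pcx), in a body that overlaps another entry, went from 0.737 to 9.99. Pck1, the gluconeogenic enzyme, had the second highest signal at 0 h, 216 units, and 388 at 3 h, a change of 0.84, and G6pc had 10.9 and 5.59. Lower were pyruvate kinase (Pklr, 5.69 and -0.387), the transporter gene Slc2a2 (4.48 and -0.130), glycogen synthase (Gys2, 2.30 and -0.183) and the phosphorylase gene Pygl (1.09 and -0.127).

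Amino acid and urea cycle genes were divided as well, with 9 of 31 higher and 8 lower and a median of -0.36. The 26 above 0.5 in both libraries held 8 higher and 4 lower genes, with a median of -0.20. The urea cycle enzymes were neither: Cps1 had 2.07 and 1.34 units, Ass1 22.2 and 23.0, Asl 13.6 and 18.5 and Arg1 15.3 and 11.9. Got1 went from 2.24 to 8.35, the ornithine carrier gene Slc25a15 from 1.1 to 5.04 and Aass, the first enzyme of lysine breakdown, from 0.0809 to 2.96. Proline dehydrogenase (Prodh) went from 9.48 to 2.51 and histidine lyase (Hal) from 3.32 to 0.892. In methyl group transfer, 3 of 12 were higher and 4 lower, while the 8 above 0.5 in both libraries held 2 higher and 1 lower gene. Mat1a, which makes the methyl donor of liver, went from 8.00 to 43.8 units and Nnmt, which methylates nicotinamide, from -0.126 to 11.6, while Gamt went from 24.0 to 7.33 and Shmt1 from 1.4 to 0.0770.

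Complement and coagulation genes had 6 of 25 higher (24.0%) and 7 lower (28.0%), shares near those of all genes. Of the 25, 7 were above 0.5 at 0 h alone. The 16 above it in both libraries held 5 higher and 1 lower gene, with a median of 0.40. C3, the central complement protein, went from 9.90 to 129 units, 13-fold, and prothrombin (F2) from 6.52 to 14.5. Factors XII and VII parted: F12 went from 3.18 to 10.01 and F7 from 2.24 to 0.0919. Antithrombin (Serpinc1) went from 5.95 to 1.34 and F11 from 2.96 to -0.199. Growth factor and growth hormone genes had 5 of 12 higher and 4 lower. The 7 above 0.5 in both libraries held 2 higher and 2 lower genes. The EGF receptor gene Egfr went from 1.4 to 5.54 and Fgfr4 from -0.0621 to 1.55. Erbb3 went from 5.71 to 1.78, Igfals, a carrier of IGFs in plasma, from 6.38 to 0.428 and Igfbp2 from 2.44 to -0.457. Igf1 had 0.743 and 0.751, and Hgf, Tgfa, Areg and Met were below 0.5 in both libraries.

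Liver transcription factors were mostly neither, with 10 of 14 in that class. The C/EBP genes went in opposite directions: Cebpa went from 93.2 to 18.9 units, a change of -2.27, and Cebpb rose by 2.74. Cebpd was not measured. Foxa2 went from 5.43 to 1.62 and Tbx3 from 1.37 to -0.193. Hnf4a had 9.19 and 12.5, Onecut1 4.95 and 7.09, Prox1 2.64 and 2.54 and Foxa3 5.11 and 5.12.

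Of 15 nuclear receptor genes and coactivators 6 were lower and 3 higher, with a median of -0.39. Of the 15, 3 were above 0.5 at 3 h alone and 1 at 0 h alone. The 11 above it in both libraries held 5 lower and 0 higher genes, with a median of -0.51. Nr0b2, the bile acid-induced repressor SHP, went from 24.5 to 1.51 units, Nr1i3, the drug sensor CAR, from 22.5 to 3.79 and the fatty acid sensor Ppara from 5.18 to 2.25. The partner gene Rxra had 8.02 and 7.46, and Nr1h4, the bile acid receptor FXR, had 1.20 and 0.794. Higher were Nr1h2 (-0.0207 and 1.91), Rxrb (-0.0939 and 1.6) and Ahr (0.358 and 1.64).

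Of 16 clock genes and clock outputs 7 were lower and 2 higher, with a median of -0.71. Of the 16, 4 were above 0.5 at 0 h alone and 1 at 3 h alone. The 11 above it in both libraries held 4 lower and 1 higher gene, with a median of -0.41. Dbp and Tef, PAR-domain output factors, went from 57.6 to 14.2 and from 3.83 to 0.442 units. The repressors Nr1d1 and Per2 went from 32.5 to 5.11 and from 4.52 to 1.03, and the signalling regulator Rgs16 from 49.7 to 12.7. Per1 had 4.39 and 6.77. Nfil3, which opposes Dbp, went from 3.66 to 10.9, and Bhlhe41 from -0.742 to 1.88. Not given in the sources used here is the clock hour of each collection, so hours after surgery and hour of day cannot be told apart.

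The unfolded protein response, which answers unfolded protein in the endoplasmic reticulum, had 7 of 17 higher and 4 lower, with a median of 0.38. Of the 17, 4 were above 0.5 at 3 h alone and 2 at 0 h alone. The 11 above it in both libraries held 4 higher and 2 lower genes, also with a median of 0.38. Creld2 went from 0.478 to 9.15 units, Xbp1, a transcription factor of the response, from 14.2 to 40.8, Atf4 from 4.72 to 12.9 and Manf from 1.01 to 4.15. The chaperone genes Hspa5, at 4.65 and 5.64, and Hsp90b1, at 1.46 and 1.71, were neither. Herpud1 went from 32.0 to 12.9 and Trib3 from 3.56 to -0.381.

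Among heat shock genes 2 of 5 were higher and 1 lower, with Hspa8, which overlaps another entry, at 1.76 and 7.19 units and Hspe1 at 2.67 and 0.173. Among genes of metal and oxidative stress 3 of 13 were higher and 2 lower. Hmox1, haem oxygenase-1, went from 0.830 to 7.09 and the zinc and iron transporter gene Slc39a14 from 2.23 to 16.8. The ferritin light chain gene Ftl1, one of the 10 highest genes at 0 h, went from 106 to 23.7 in a body that overlaps another entry, beside 5.17 and 4.50 for Fth1. The metallothionein genes Mt1 and Mt2 were not measured. The medians of these 2 lists, -0.09 and -0.08, changed sign when the background level was set per library.

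Ribosomal protein genes had 12 of 41 higher and 1 lower, with a median of 0.70 and a range of 0.33 to 0.71 over the scalings. Of the 41, 10 were above 0.5 at 3 h alone. Among the 30 above it in both libraries 5 were higher and 1 lower, with a median of 0.55, beside 392 higher of all 2238 such genes. In 22 of the 41 the measured body overlapped another entry, often a small RNA gene inside an intron; among the other 19, 6 were higher and 1 lower, with a median of 0.82. Rps15 went from -0.440 to 3.82 units, Rps9 from 0.482 to 4.32 and Rplp1 from 6.74 to 1.57. Respiratory chain genes had 1 of 16 higher and 4 lower, and proteasome genes 2 of 12 in each direction. The 12 respiratory chain genes above 0.5 in both libraries held 1 higher and 1 lower gene. The 6 such proteasome genes held 0 of either. Of 7 genes of ribosome biogenesis 1 was higher and 2 lower.

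Genes of the cell cycle were mostly below the limit. Of 28 measured genes of replication and mitosis 4 were above 0.5 in either library, with 0 higher and 2 lower: E2f1 went from 0.721 to -0.248 units and Cdc20 from 0.689 to -0.0495, while Mcm7, which overlaps another entry, had 4.13 and 3.05. Among cyclins and p53 targets 3 of 11 were higher and 4 lower, while the 8 above 0.5 in both libraries held 3 higher and 1 lower gene. Cyclin D1 (Ccnd1) went from 3.28 to 0.914, cyclin D3 (Ccnd3) had 1.26 and 2.83 and the CDK inhibitor gene Cdkn1b went from 1.68 to -0.0860. Cdkn1a, the p53 target p21, went from 1.84 to 7.11, and the stress cytokine gene Gdf15 from 39.7 to 124.

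Markers of other liver cells were low in both libraries. Of 72 measured markers in 7 lists, 13 were above 0.5 in either library, and the highest level was 5.86 units, at the neutrophil gene Camp at 0 h, which had 1.51 at 3 h. At or below 0 were 53 markers at 0 h and 60 at 3 h. The summed level of the 12 Kupffer cell and macrophage markers was 4.33 units at 0 h and 2.17 at 3 h, that of the 12 endothelial markers 4.58 and 6.33 and that of the 10 measured neutrophil markers 6.04 and 1.53. The Kupffer cell gene Clec4f went from 1.53 to -0.0718, while Adgre1, Marco, Vsig4 and Timd4 were below 0 in both. The neutrophil genes Ly6g and Retnlg were below 0 in both libraries. The epithelial junction gene Cldn7 went from -0.897 to 2.62, while the bile duct genes Krt19, Krt7 and Epcam were below 0 in both.

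The later libraries show what became of the genes called at 3 h; they played no part in the calls, although all 8 libraries share 1 scaling. The 1001 higher genes had a median of 0.210 units per bp at 0 h and 2.38 at 3 h, and of 1.19, 1.28, 0.837, 1.26, 1.09 and 0.430 at 8, 16, 24, 36, 48 and 168 h. Their 3 h level was thus the highest of the 8 medians, and every later median lay above that of 0 h. The 1416 lower genes had a median of 1.4 at 0 h and 0.0048 at 3 h, and of 0.473, 0.514, 0.613, 0.639, 0.4998 and 0.693 afterwards. Of these 1416 genes, 796 were above 0.5 at 168 h. The 2038 genes that were neither had medians of 1.24 at 0 h, 1.22 at 3 h and 0.999 to 1.32 at later times. A gene chosen as high in 1 library tends to be lower in others, and a gene chosen as low tends to be higher, whatever the time.

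**Figure D4:**
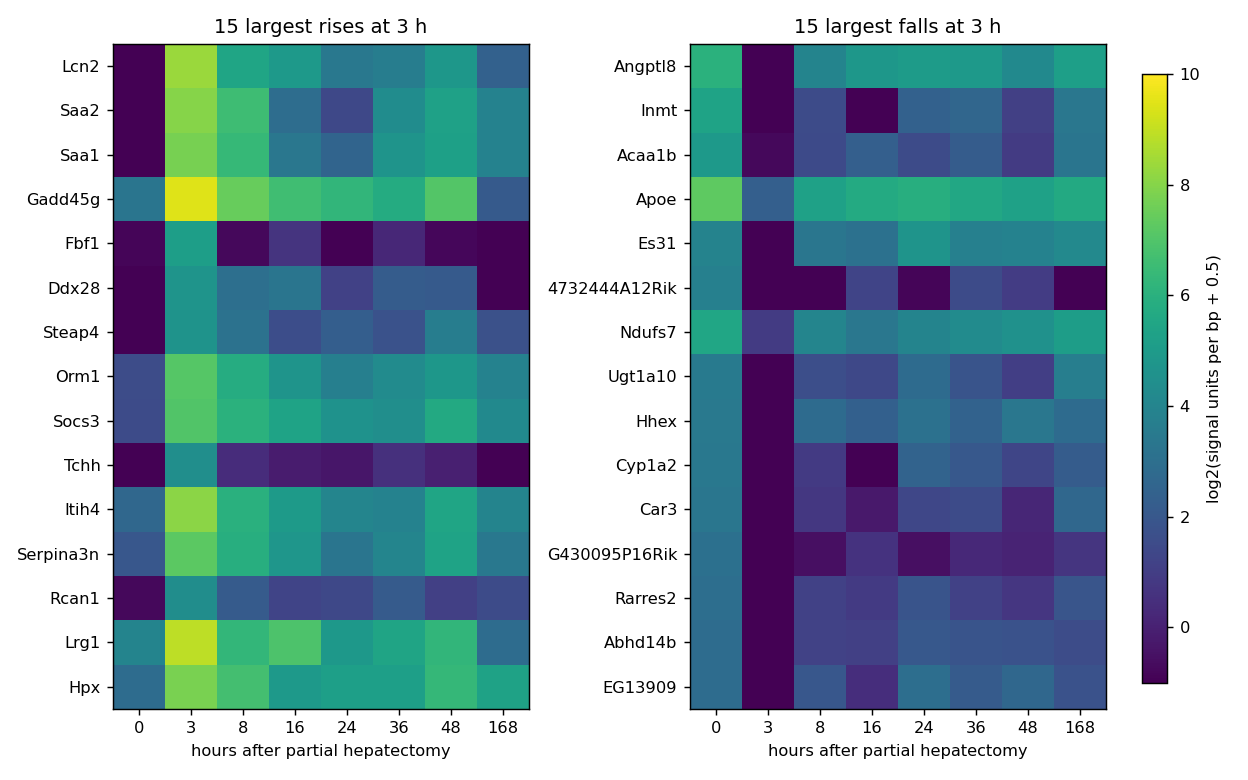
Rows are the 15 largest rises (left) and the 15 largest falls (right), columns the 8 libraries in hours after partial hepatectomy, and colour the log2 of Pol II signal units per bp after adding 0.5. The 3 h column is the brightest of 8 in every row on the left, and on the right the 3 h values lie between -2.97 and 4.50 units.

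The later levels of the 15 largest rises had medians of 58.3, 25.4, 9.16, 15.7, 37.2 and 6.97 units from 8 to 168 h, against 150 at 3 h and 0.0911 at 0 h. The values at 48 h lay above those at 24 h for Lcn2 (28.0 and 10.01), Saa2 (39.0 and 2.10), Socs3 (50.9 and 24.2) and Gadd45g (133 and 74.8). The 15 largest falls had a median of 11.2 units at 0 h, -0.351 at 3 h and 1.90 to 6.6 later. Of the 10 genes highest at 0 h, Sphk2, a lipid kinase gene, went from 104 to 13.4 units and had 6.35 to 47.4 later, and Sephs2, a selenium enzyme gene, went from 105 to 30.4 and had 21.2 to 44.6 later. AI132487 (Slc25a47 in RefSeq), a mitochondrial carrier gene, had 180 and 177 at 0 and 3 h and 32.4 to 97.3 afterwards.

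Some called genes lay side by side. Where the next member began within 100 kb, it was also higher for 39.2% of higher genes (222 of 566), against 23.2% of all such next members. It was also lower for 43.7% of lower genes (313 of 716), against 28.5% of all. Runs of 4 or more called genes in the same direction, with starts within 100 kb of each other and no other member between, numbered 17 for higher and 21 for lower genes. They included Tmem110, Mustn1, Itih4, Itih3 and Itih1 on mm9 chromosome 14, Saa3, Saa4, Saa1, Saa2 and Ldha on chromosome 7, and the fibrinogen genes with AC138394.7-1 on chromosome 3. Among lower genes a run held Apoc2, Apoc4, Apoc1 and Apoe on chromosome 7.

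Some higher genes lay just behind another. RP23-340H1.3 starts 2249 bp past the end of Orm1 and went from 0.171 to 15.4 units, and 1110008P14Rik starts 2768 bp past the end of Lcn2 and went from -0.0928 to 12.5. Insl3, a testis hormone gene, starts 1146 bp past Jak3 and went from -0.699 to 12.3, beside 0.203 and 4.80 for Jak3. Txnl4b, which went from 4.37 to 85.1, meets Hp tail to tail with 1079 bp between the measured bodies.

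Over all members with a same-strand gene ending within 10 kb before the start, 11.1% had that gene called higher and 12.8% had it called lower. Among genes called higher the first share was 20.2% (53 of 263): 28.6% (26 of 91) of those above 0.5 in both libraries and 15.7% (27 of 172) of those above it at 3 h alone. Among genes called lower the second share was 15.5% (53 of 342). Whether Pol II on these bodies began at their own start or came from the gene before was not tested, since ChIP carries no strand and the files give 1 value per gene.

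C/EBP binding near the gene starts came from other libraries of the series and took no part in the calls. To set equal lengths, the 29383 regions of highest score were kept in each of 4 lists, and a gene counted where a region centre lay within 1 kb of its start. Intervals are Wilson 95% intervals, which cover counting error over genes only. C/EBPbeta regions lay near 22.8% of the 1001 higher genes at 0 h (20.3% to 25.5%) and 45.3% at 3 h (42.2% to 48.4%). Near the 1416 lower genes they lay in 24.0% (21.9% to 26.3%) and 41.7% (39.1% to 44.3%), and near the 2038 others in 23.7% (21.9% to 25.6%) and 47.9% (45.7% to 50.1%). Measured genes that were not members had 9.08% and 19.3%. At 3 h the intervals of lower genes and of the others did not overlap, but these groups also differed in detection. Of the lower genes 1076 were above 0.5 at 0 h alone, while 1506 of the others were above it in both libraries. The part of detection in the shares was not tested. The deposited lists hold 54574 C/EBPbeta regions at 0 h and 35256 at 3 h, so equal lengths leave out more at 0 h. With the full lists the shares at 0 and 3 h were 30.4% and 49.5% for higher genes, 34.5% and 45.6% for lower genes and 33.3% and 49.6% for all members. Within 10 kb of the start and with full lists they were 74.2% and 82.1% for higher genes, and for lower genes 76.7% and 74.4%, the opposite order. With equal lengths, the shares within 10 kb at 3 h were 78.5% for higher genes, 69.7% for lower genes and 76.2% for all members.

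C/EBPalpha regions lay near 23.5% of higher genes at 0 h and 32.6% at 3 h, and near 27.1% and 31.1% of lower genes. The shares were 27.7% and 34.9% for genes that were neither and 26.6% and 33.2% for all members. At changes of 2 or more, 39.2% of lower genes (33.9% to 44.8%) and 29.1% of higher genes (24.3% to 34.5%) had a C/EBPalpha region at 0 h. At 3 h these shares were 40.5% and 37.7%, and within 10 kb at 0 h they were 69.6% and 67.9%, beside 62.1% of all members. The intervals of lower and higher genes overlapped in every one of these comparisons, also within 1 kb at 0 h. The C/EBPbeta share at 3 h was 48.7% for those lower genes and 49.3% for those higher genes. Among the 15 largest rises 14 had a C/EBPbeta region within 1 kb at 3 h, Socs3 being the exception with its nearest region of the full list at 1312 bp, and among the 15 largest falls 9 had one. Of the 21 acute phase genes, 20 already had a C/EBPbeta region at 0 h and 18 had one at 3 h. The numbers for the 41 ribosomal protein genes were 11 and 20.

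**Figure D5:**
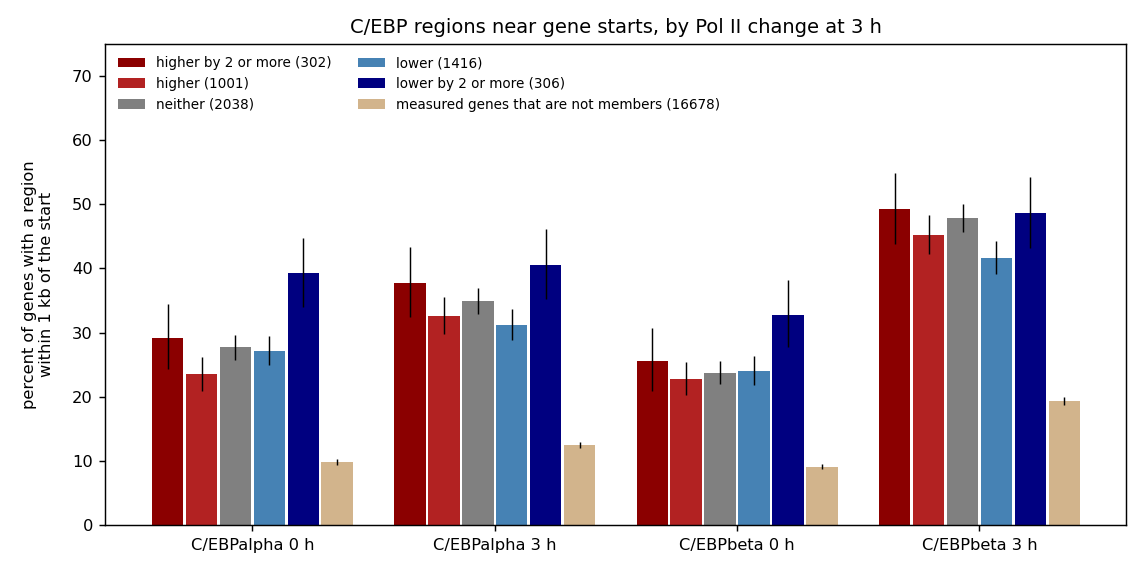
Bars give the percent of genes with a C/EBPalpha or C/EBPbeta region centre within 1 kb of the start, at 0 and 3 h, for genes grouped by their Pol II change with the number of genes in brackets, and error bars are Wilson 95% intervals over genes. C/EBPbeta at 3 h stands at 41.7% to 49.3% in every member group, and C/EBPalpha in the genes lower by 2 or more stands at 39.2% at 0 h and 40.5% at 3 h, beside 29.1% and 37.7% in the genes higher by 2 or more.

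Called genes were shorter than the rest. The median measured width was 5561 bp for higher genes, 6244.5 bp for lower genes and 8245.5 bp for the others. Genes of 500 to 2000 bp were called most often, with 31.3% higher and 37.7% lower of 741, against 17.8% to 22.8% higher and 28.2% to 34.7% lower in the wider classes. The body overlapped another entry in 17.6% of higher genes, 14.9% of lower genes and 17.2% of all members.

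RefSeq promoters of GRCm38.p6, from 250 bases before to 50 after the start, were matched for the 2607 members that have a single start in that table, of 22862 such promoters. The number of CpG dinucleotides per promoter had a median of 10.5 in the 170 genes lower by 2 or more, 19 in the 185 higher by 2 or more, 19 in all members and 7 in all promoters. These promoters were searched for 11 motifs, not all of which are reported here. The CRE letters TGACGTCA, which the factor CREB is known to bind, were found in 14 of the 185 (7.57%), in 2 of the 170 (1.18%), in 3.03% of members and in 1.85% of all promoters. The 14 were Ddx28, Txnl4b, Tbcc, Ormdl3, Lrrc8a, Cpb2, Csf2ra, Eef2, Rps9, Btg2, Trmt61a, Cope, Rpl13 and Cltb.

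The STAT letters were in 6.49% of promoters of genes higher by 2 or more, 2.35% of those lower by 2 or more, 4.07% of members and 4.96% of all promoters. The C/EBP letters were in 14.1%, 12.4%, 9.51% and 10.8% in that order, and the TATA letters in 12.97%, 16.5%, 9.70% and 14.8%. The AP-1 letters TGANTCA were in 7.57%, 4.71%, 5.83% and 7.98%. The HNF4 letters CAAAGTCCA went the other way from CRE, in 1 promoter of higher and 4 of lower genes, or 0.54%, 2.35%, 0.69% and 0.49%. These are letters within 1 window, searched on both strands, and the CRE letters read the same on both.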

How the data were processed

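Pol II files for 8 time points and C/EBPalpha and C/EBPbeta region lists for 0 and 3 h, 12 files in all, were used. The mock immunoprecipitation was not analysed here. The submitters' processing notes name Bowtie 0.12.7, MACS 1.4.1 and mm9, with no role or order. The deposited Pol II value is a signed score per gene entry. From its values it is a signal summed from about 500 bp past the start to the gene end, less a background. In 1579 genes the RefSeq length exceeds the measured width by 495 to 505 bp. Not given in the sources used here is how the authors scaled this score. The C/EBP score of the deposited lists was used only to rank regions within a list. No read counts are given, so depth and counting error of the signal are unknown.

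Of 31804 entries, 10671 were set aside, 6603 because their end lay before their start and others because they shared a name or were under 500 bp. The score was divided by width, which gives signal units per bp. Libraries were scaled by their median ratio over the 1472 genes that passed 0.5 in all 8, which shifted the 3 h changes by 0.26 on the log2 scale. Changes are therefore relative to those genes. For the log2, 0.5 was added to each signal, negative signals counting as 0, which understates changes of low genes. Coordinates are as deposited. Members were matched to RefSeq symbols of GRCm38.p6, 3597 by current and 521 by older names.

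The members, the 37 gene lists (845 genes, 823 measured, 492 members) and the printed promoters were chosen with earlier results of these data known. Named genes are the 15 largest changes each way among genes of 5 or more units, the 10 highest per library, and list genes. Others, such as genes beside a named gene, were chosen after their values were seen. Python 3.11.15 with numpy 2.4.6, pandas 2.3.3 and scipy 1.17.1 was used. The scaling and the log2 change were tested on simulated libraries, which held no negative values and no background offset. Some list genes are not reported here.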

Additional observations from a re-analysis of the deposited data

How the results depend on the processing

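The counts of 1001 higher and 1416 lower genes depended on how low signals were treated. With 2 added in place of 0.5 they were 396 and 351, among genes above 2 in either library 556 and 541, and among genes above 0.5 in both libraries 392 and 340. Without rescaling they were 893 and 1751. The C/EBPbeta shares at 3 h of 45.3% (higher) and 41.7% (lower) became 78.5% and 69.7% within 10 kb, and 49.5% and 45.6% with full lists. The 30 largest rises and falls kept their sign and a size of 1 or more in all 297 values computed. Of 279 called list genes, 166 were called with 2 added, and 0 changed sign under any of the 11 alternatives. Alternatives that only filter genes leave the value of each kept gene as it was, so in these no sign could change. Adding another constant keeps the sign of every change as well. The other scalings, and that of the wider minimum width, shifted changes by less than the limit of 1, too little to turn a called gene. Only the background level set per library could do so: there 269 of the 279 were called in the same direction and 0 changed sign. With both libraries required to be above 0.5, 7 of the 15 largest rises and 2 of the 15 largest falls were left. Of 400 list medians, 47 moved by over 0.58, and 24, in 10 of the 37 lists, took the opposite sign. In 9 of these lists the median was 0.52 or less in size to begin with. The other was the Kupffer cell list, of 3 genes, at -1.10, which had a median of 0.057 among genes above 2 in either library and above 0.5 in both libraries. No paired analysis was possible because each time point is 1 library.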
